A study of Mus musculus with 12 samples.

Results

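Interferon-stimulated genes are the genes that cells switch on when an interferon binds its receptor. A list of 35 of them was followed through the liver transcriptomes of mice that lack apolipoprotein A-I and apolipoprotein E. The members were chosen by gene symbol, with earlier results of these data known, and a gene was kept where its mean level was above 0. All 35 listed genes were found and kept, of 23284 genes in the table, and all 35 were among the 11548 genes tested. The libraries came from whole liver and fell into 4 groups of 12 libraries in all. There were 3 libraries of DKO/hA1 on Western diet, 3 of DKO on Western diet, 2 of DKO/hA1 on chow and 4 of DKO on chow. DKO stands for Apoa1-/- Apoe-/- mice, a double knockout that all 4 groups share, and DKO/hA1 for mice with that double knockout that also express human APOA1. High-density lipoprotein is built around apolipoprotein A-I, whereas apolipoprotein E is the ligand by which the liver clears lipoprotein remnants. Chow is a standard laboratory diet and Western diet is high in fat, and each was fed for 22 weeks. The promoter of the human transgene, and the age and sex of the mice, are not given in the sources used here. No group had wild-type Apoe, so all values describe double knockout livers.

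Type I interferons signal through Jak kinases to a complex that includes Stat2 and Irf9 and binds interferon-stimulated response elements in promoters. Interferon gamma acts mainly through another promoter element, the gamma-activated site. The genes induced this way encode sensors of viral nucleic acid, enzymes that degrade or modify viral RNA, proteins that trap virions, guanylate-binding proteins that attack intracellular microbes, and the immunoproteasome and peptide transporter that feed MHC class I. In the liver, hepatocytes, Kupffer cells and endothelium can all respond to interferon.

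Levels are FPKM, fragments scaled to transcript length and library size, as the authors deposited them. They summed to between 379689 and 578927 per library. Relative depth, read from the steps between low values, ran from 0.516 to 1.27 of DKO chow replicate 1, lowest in DKO chow replicate 2 and next in the third DKO Western diet library. Apoa1 stood at 122 to 240 FPKM in the DKO/hA1 libraries and 30.4 to 77.4 FPKM in the DKO libraries. Apoe stood at 12.9 to 89.8 FPKM over all 12 libraries, highest in DKO Western diet replicate 1. Summed neutrophil markers reached 850.5 FPKM in DKO/hA1 Western diet replicate 3 and 920 FPKM in the second DKO Western diet library, and stood between 12.1 and 218 FPKM elsewhere. The hepatocyte markers were present at 8675 to 15440 FPKM in sum in every library. The labels give each library its own code but do not say how the mice were raised or housed, so p-values measure the spread between these libraries. A log2 fold change below comes from log2(FPKM + 1) and is given with its standard error, and a gene is called where its adjusted p from limma (Benjamini-Hochberg over all 11548 genes, two-sided) is below 0.05. Adding 1 makes fold changes of genes near 1 FPKM smaller than the ratio of their levels.

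Many members carry an interferon-stimulated response element near the start of transcription. RefSeq promoter windows on GRCm38.p6, from 250 bases before to 50 bases after each transcription start, were found for 25 of the 35 members. No window was matched for Dhx58, Zbp1, Oas2, Usp18, Mx1, Mx2, Rtp4, Gbp6, Ifi27l2a and Parp14. The core of the interferon-stimulated response element was searched on both strands as GAAA, any 2 bases and GAAA again, and the gamma-activated site as TTCNNNGAA, which reads alike on both strands. The response element core was found for 13 of the 25 members, against 3.99% of all 27025 genes with such windows. The gamma-activated site was found for 7 of the 25, namely Irf1, Oas1a, Ifit2, Bst2, Gbp7, Psmb8 and Ifi35, against 9.55% of all genes. These matches are letters in a window and describe the sequence alone. Stretches around the matches of 7 members are shown. Oas3 was called for diet, Bst2 had the highest level, Gbp2 and Trim30a did not overlap between the genotypes on Western diet, and Isg15, Ifit1 and Rsad2 are widely used as reporters of the type I response. Each line runs 5′ to 3′ along the gene, and capitals mark the response element core or its reverse complement, with overlapping matches run together.
Oas3, chr5:120777700-120777759, minus strand: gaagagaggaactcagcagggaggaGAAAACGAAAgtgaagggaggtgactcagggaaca
Isg15, chr4:156200850-156200921, minus strand: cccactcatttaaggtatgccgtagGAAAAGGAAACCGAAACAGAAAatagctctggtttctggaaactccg
Ifit1, chr19:34640760-34640838, plus strand: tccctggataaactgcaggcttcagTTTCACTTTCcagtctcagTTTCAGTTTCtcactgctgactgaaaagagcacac
Rsad2, chr12:26456538-26456597, minus strand: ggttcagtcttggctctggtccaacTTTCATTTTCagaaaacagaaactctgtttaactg
Bst2, chr8:71537562-71537627, minus strand: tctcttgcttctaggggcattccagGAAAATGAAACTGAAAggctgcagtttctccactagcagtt
Gbp2, chr3:142620579-142620638, plus strand: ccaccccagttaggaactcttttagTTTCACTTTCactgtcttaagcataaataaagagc
Trim30a, chr7:104465195-104465254, minus strand: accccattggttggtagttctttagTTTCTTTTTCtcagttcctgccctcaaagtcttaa

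In these stretches the copies lay close to the start of transcription. Isg15 held 3 overlapping copies, 78 to 57 bases before its start. Ifit1 held 2 separate copies, of which the nearer lay 85 to 76 bases before the start. Bst2 held 2 overlapping copies between 130 and 115 bases before the start, and a gamma-activated site at 136 to 128 bases before it overlapped the first of them. The copy of Oas3 lay 75 to 66 bases, that of Gbp2 59 to 50 bases and that of Rsad2 120 to 111 bases before the start.

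**Figure D1:**
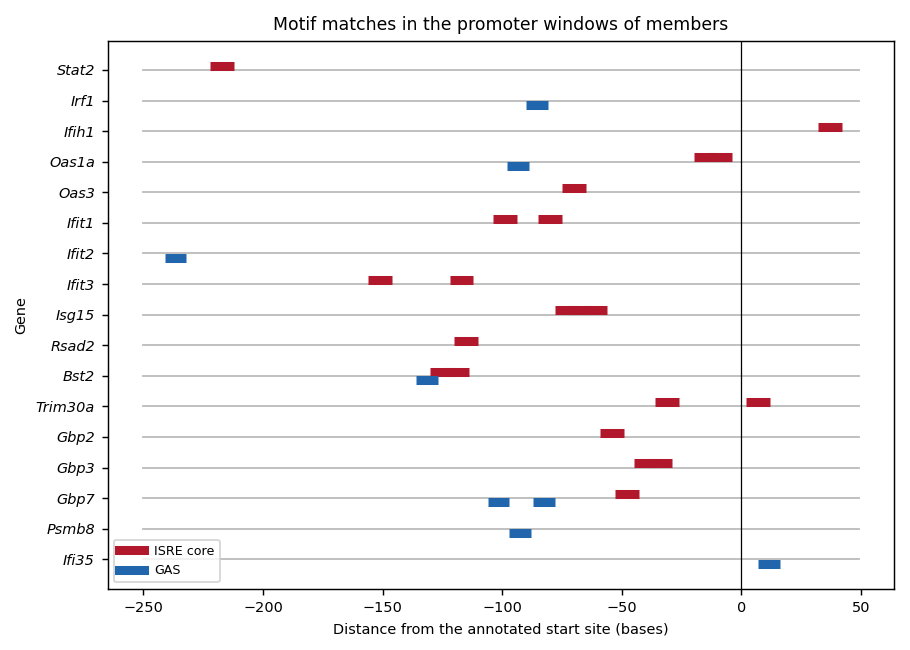
Matches to the interferon-stimulated response element core (ISRE core) and the gamma-activated site (GAS) in the RefSeq promoter windows of the members with a match, plotted by distance in bases from the transcription start. Members with several starts are drawn on 1 line, and most of the core matches lie upstream of the start.

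The 35 genes were expressed in these livers at widely different levels. At the top was Bst2, which encodes tetherin, a membrane protein that holds budding virions on the cell. It stood at 345, 170 and 205 FPKM in DKO/hA1 Western diet livers, 267, 186 and 288 FPKM in DKO Western diet livers, 208 and 210 FPKM in DKO/hA1 chow livers, and 185, 204, 244 and 266 FPKM in DKO chow livers. These groups overlapped, and no comparison called Bst2. Irf7, the transcription factor that amplifies type I interferon production, averaged 33.7 FPKM over all libraries, Psmb8 32.9, Ifi27l2a 28.0 and Psmb9 26.2. At the low end stood Mx1, a GTPase that blocks viral replication, at 0.373 to 1.88 FPKM. Oas3 ranged from 0.392 to 2.96 FPKM. Of the 35 members, 31 reached 1 FPKM in all 12 libraries, Ifit2 and Rsad2 in 11, Oas3 in 7 and Mx1 in 6. For Oas3 and Mx1 the only chow library at 1 FPKM was DKO chow replicate 4. Genes needed 1 FPKM in at least 2 libraries to be tested, so both were tested because of their Western diet libraries.

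**Figure D2:**
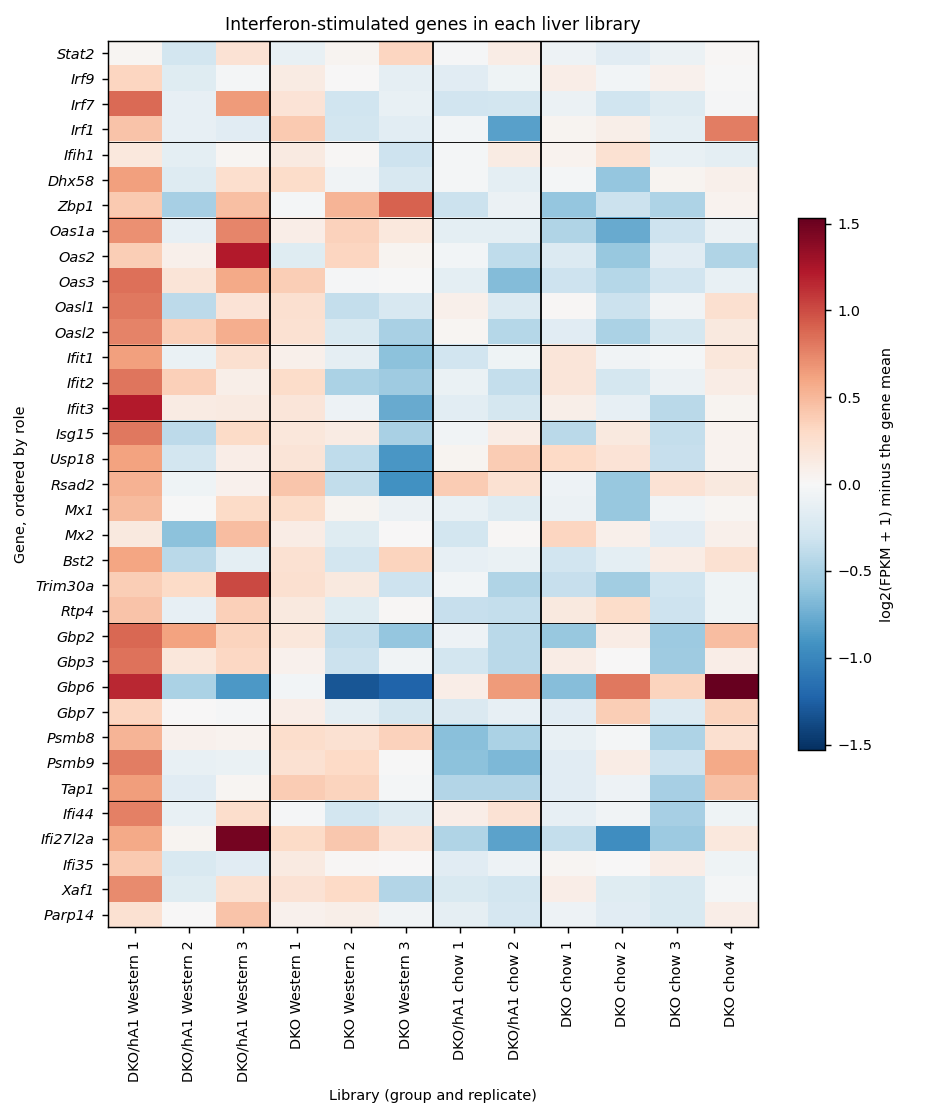
Each row is a member, ordered by role, and each column a library, with the Western diet libraries (DKO/hA1, then DKO) left of the chow libraries in the same order; colour is log2(FPKM + 1) minus the mean of that gene over the 12 libraries. The column of DKO/hA1 Western diet replicate 1 is above the mean for all 35 members.

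Western diet livers, set against chow livers over both genotypes, had more transcript of 3 members, namely Oas3, Ifi27l2a and Psmb8. They were 3 of 35 members called, all higher, where 2.79% of all genes were called higher, 1.21% lower and 4.00% in either direction. At an unadjusted p below 0.05, 14 members were higher and 0 lower, where 11.1% of all genes were higher and 8.47% lower. The median log2 fold change of the 35 members was 0.24, beside -0.013 over all genes tested, and 30 of the 35 were positive. Leaving out replicate 1 of DKO/hA1 on Western diet gave a member median of 0.086, and leaving out replicate 1 of DKO on Western diet gave 0.16. Each genotype entered this comparison with equal weight.

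Oas3 makes the 2-5A signal that activates the RNA-degrading enzyme RNase L. Its level was 2.96, 1.52 and 2.29 FPKM in DKO/hA1 Western diet livers, against 0.987 and 0.392 FPKM in DKO/hA1 chow livers. In DKO livers it was 1.86, 1.17 and 1.19 FPKM on Western diet, against 0.769, 0.623, 0.797 and 1.03 FPKM on chow. Every Western diet library of either genotype lay above every chow library. On chow only DKO chow replicate 4 reached 1 FPKM, so Oas3 passed the filter on low values through its Western diet libraries. The test was therefore not independent of that filter. Without the filter Oas3 was still called (limma adjusted p = 0.0406). The averaged log2 fold change was 0.65 ± 0.14 (limma adjusted p = 0.0268). Oas3 lies at chr5:120753098-120777684 beside Oas2, with Oas1a farther along at chr5:120896256-120907544. The promoter copy of the response element of Oas3 is printed above.

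Ifi27l2a encodes a small interferon-induced membrane protein, and lies at chr12:103433873-103443680. Its level was 37.8, 25.9 and 70.9 FPKM in DKO/hA1 Western diet livers, against 18.0 and 13.8 FPKM in DKO/hA1 chow livers. In DKO livers it was 31.0, 33.6 and 29.2 FPKM on Western diet, against 19.2, 12.4, 16.7 and 28.1 FPKM on chow. Within each genotype the diets did not overlap, although DKO chow replicate 4 lay just below the lowest DKO Western diet library. The averaged log2 fold change was 0.99 ± 0.24 (limma adjusted p = 0.0424).

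Psmb8 encodes a catalytic subunit of the immunoproteasome, which cuts proteins into peptides for MHC class I, and lies at chr17:34198195-34201454. Its level was 46.3, 33.4 and 33.1 FPKM in DKO/hA1 Western diet livers, against 20.1 and 22.5 FPKM in DKO/hA1 chow livers. In DKO livers it was 38.9, 37.9 and 41.1 FPKM on Western diet, against 29.3, 31.4, 22.7 and 38.2 FPKM on chow. The diets did not overlap in DKO/hA1 livers, whereas in DKO livers chow replicate 4 lay above Western diet replicate 2. The averaged log2 fold change was 0.54 ± 0.13 (limma adjusted p = 0.0466). Of the 50-base sequences of Psmb8 transcripts, 11.6% also occur in Gm20496, whose exons overlap those of Psmb8 on the opposite strand. How the authors' counting divided fragments between them is uncertain.

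All 3 calls lay close to the threshold. None of them passed when DKO/hA1 chow replicate 2 was left out, when DKO chow replicate 3 was left out, or when the libraries were brought to equal totals. None passed with a block by the code number in the labels either (estimated correlation 0.547, smallest limma adjusted p of a member 0.126), where 70 genes were called in all, against 462 without the block. Oas3 alone passed without DKO/hA1 Western diet replicate 1, without any 1 of the DKO Western diet libraries, without DKO/hA1 chow replicate 1, and without DKO chow replicate 1 or 2 (limma adjusted p = 0.0264 to 0.0498).

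Oas1a, another 2-5A synthetase, and Trim30a, a ubiquitin ligase of the tripartite motif family that dampens inflammatory signalling, came next by their test statistic. Oas1a stood at 9.04, 4.70 and 9.38 FPKM in DKO/hA1 Western diet livers, against 4.60 and 4.57 FPKM in DKO/hA1 chow livers. It stood at 5.67, 6.95 and 5.94 FPKM in DKO Western diet livers, against 3.50, 2.62, 3.98 and 4.83 FPKM in DKO chow livers. The diets did not overlap within either genotype, yet the averaged value of 0.57 ± 0.16 missed the threshold (limma adjusted p = 0.0713). Without DKO/hA1 Western diet replicate 2, its lowest Western diet library, Oas1a passed (adjusted p = 0.0156). Of the 50-base sequences of Oas1a transcripts, 57.6% also occur in Oas1g, a near copy, so how the authors' counting divided fragments between them is uncertain. Trim30a had an averaged value of 0.54 ± 0.15 (limma adjusted p = 0.0743).

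**Figure D3:**
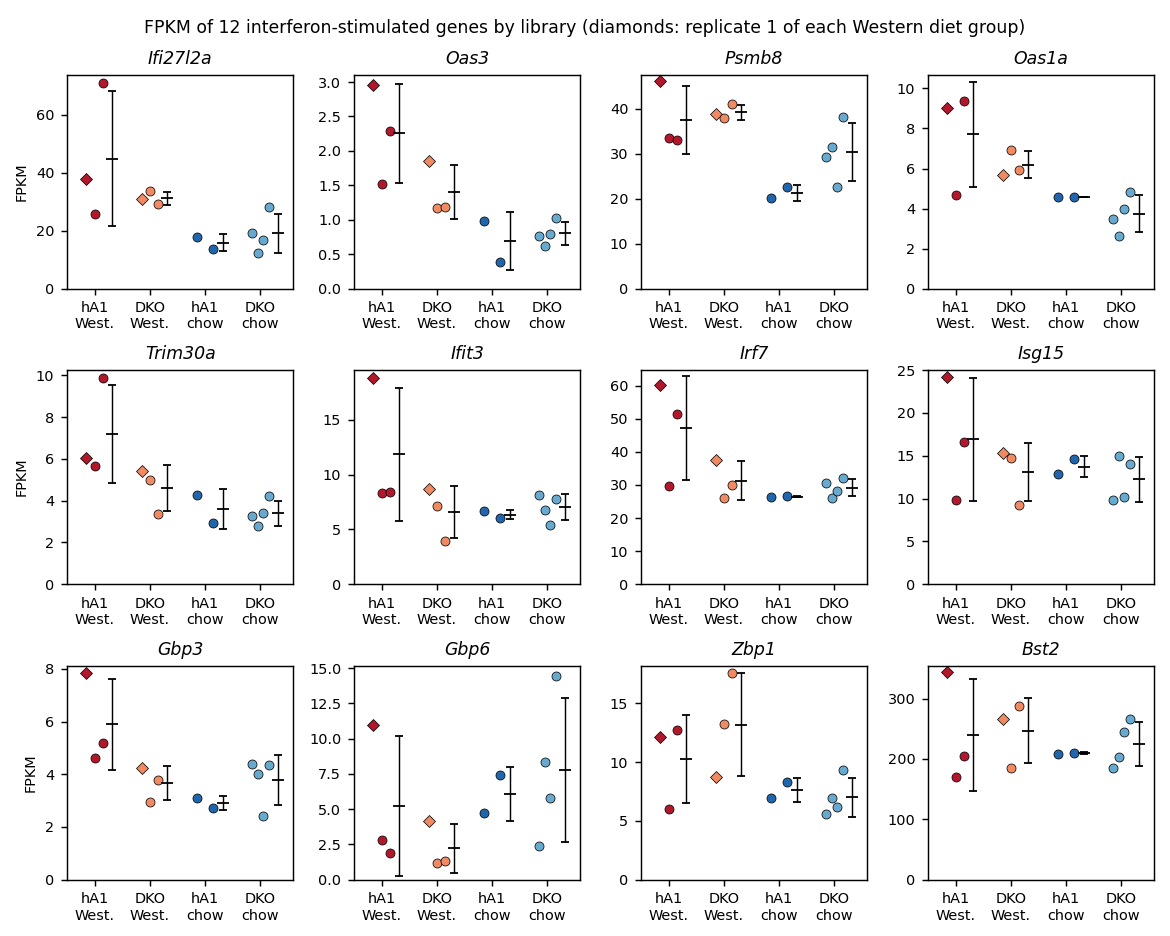
FPKM in each of the 12 libraries for 12 members, with Western diet (DKO/hA1, marked hA1, then DKO) left of chow in the same order; each point is a library, diamonds are replicate 1 of each Western diet group, and the bars are the group mean and SD. For Oas3 all 6 Western diet libraries sit above all 6 chow libraries.

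Within DKO/hA1 livers most members had a higher estimate on Western diet, but no member passed. The members were measured in the same few libraries, so their number is not a count of independent results. The median log2 fold change, Western diet over chow, was 0.43 for the members and -0.015 for all genes, and 30 of 35 members were positive. limma called 0 of 35 members at the adjusted threshold, where 1.47% of all genes were called, 1.12% higher and 0.355% lower. That share rests largely on 1 chow library, since 170 genes were called with all libraries and 4 without DKO/hA1 chow replicate 2, and 19 were called with the block by code number. At an unadjusted p below 0.05, 14 members were higher and 0 lower, where 7.73% of all genes were higher and 5.78% lower. For 19 members all 3 Western diet libraries lay above both chow libraries, which held for 15.6% of all genes, and for 0 members did they all lie below, which held for 14.7%. Those 19 were Gbp2, Gbp3, Gbp7, Ifi27l2a, Ifit2, Ifit3, Irf7, Mx1, Oas1a, Oas2, Oas3, Oasl2, Parp14, Psmb8, Psmb9, Rtp4, Tap1, Trim30a and Xaf1.

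The smallest adjusted p in DKO/hA1 livers was that of Oas3, with 0.94 ± 0.22 (limma adjusted p = 0.0614). Psmb8 followed with 0.76 ± 0.20 (limma adjusted p = 0.0967) and Ifi27l2a with 1.32 ± 0.36 (limma adjusted p = 0.107). Trim30a stood at 6.02, 5.67 and 9.90 FPKM on Western diet, against 4.29 and 2.93 FPKM on chow (0.80 ± 0.23, limma adjusted p = 0.126). Gbp3, a guanylate-binding protein, stood at 7.85, 4.63 and 5.19 FPKM on Western diet, against 3.09 and 2.74 FPKM on chow (0.78 ± 0.23, limma adjusted p = 0.135). For all 5 genes the lowest Western diet library lay above the highest chow library. They were picked for the largest test statistic in this same comparison, so the lack of overlap is no separate support. Irf7 stood at 60.3, 29.7 and 51.5 FPKM on Western diet, against 26.3 and 26.6 FPKM on chow (0.74 ± 0.24, limma adjusted p = 0.176), and Western diet replicate 2 lay near the chow level. Psmb9, the neighbouring immunoproteasome subunit, stood at 44.0, 23.1 and 23.3 FPKM on Western diet, against 15.9 and 15.1 FPKM on chow (0.84 ± 0.29, limma adjusted p = 0.207).

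A few members did not share that direction in DKO/hA1 livers. Rsad2, which encodes viperin, an enzyme that makes a chain-terminating nucleotide against viral RNA, stood at 3.44, 1.94 and 2.20 FPKM on Western diet, against 3.01 and 2.61 FPKM on chow. Usp18, the protease that removes Isg15 from proteins and restrains the interferon receptor, stood at 11.1, 5.52 and 7.45 FPKM on Western diet, against 7.13 and 9.34 FPKM on chow. Stat2, Ifih1, Usp18, Rsad2 and Gbp6 were the 5 members with a negative value there, and the diets overlapped for all 5.

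Within DKO livers the members showed no common direction with diet. Their median log2 fold change was -0.025, beside -0.0087 for all genes, with 17 of 35 positive. limma called 0 of 35 members, where 0.113% of all genes were called. At an unadjusted p below 0.05, 2 members were higher and 1 lower, where 7.06% of all genes were higher and 4.75% lower. Diets without overlap were found for 3 members, all higher on Western diet, namely Oas1a, Oas3 and Ifi27l2a, where 10.5% of all genes were higher in this way and 3.16% lower.

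Oas1a had the smallest adjusted p in DKO livers (0.56 ± 0.20, limma adjusted p = 0.328). Zbp1, a sensor of Z-form nucleic acid that can trigger necroptosis, stood at 8.74, 13.3 and 17.6 FPKM on Western diet, against 5.62, 6.91, 6.17 and 9.32 FPKM on chow (0.73 ± 0.27, limma adjusted p = 0.339). In DKO/hA1 livers Zbp1 stood at 12.1, 5.995 and 12.7 FPKM on Western diet, against 6.94 and 8.35 FPKM on chow (0.31 ± 0.32). Both pairs of groups overlapped for Zbp1.

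Gbp6 had the widest spread of all members as a ratio of its highest to its lowest library. It stood at 10.9, 2.82 and 1.92 FPKM in DKO/hA1 Western diet livers, against 4.73 and 7.43 FPKM in DKO/hA1 chow livers. It stood at 4.19, 1.16 and 1.29 FPKM in DKO Western diet livers, against 2.41, 8.37, 5.76 and 14.5 FPKM in DKO chow livers. The value in DKO livers was -1.42 ± 0.59 (limma adjusted p = 0.389), and the diets overlapped in both genotypes. Of the 50-base sequences of Gbp6 transcripts, 70.7% also occur in other genes, 45.9% in Gbp10, so its level is uncertain.

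**Figure D4:**
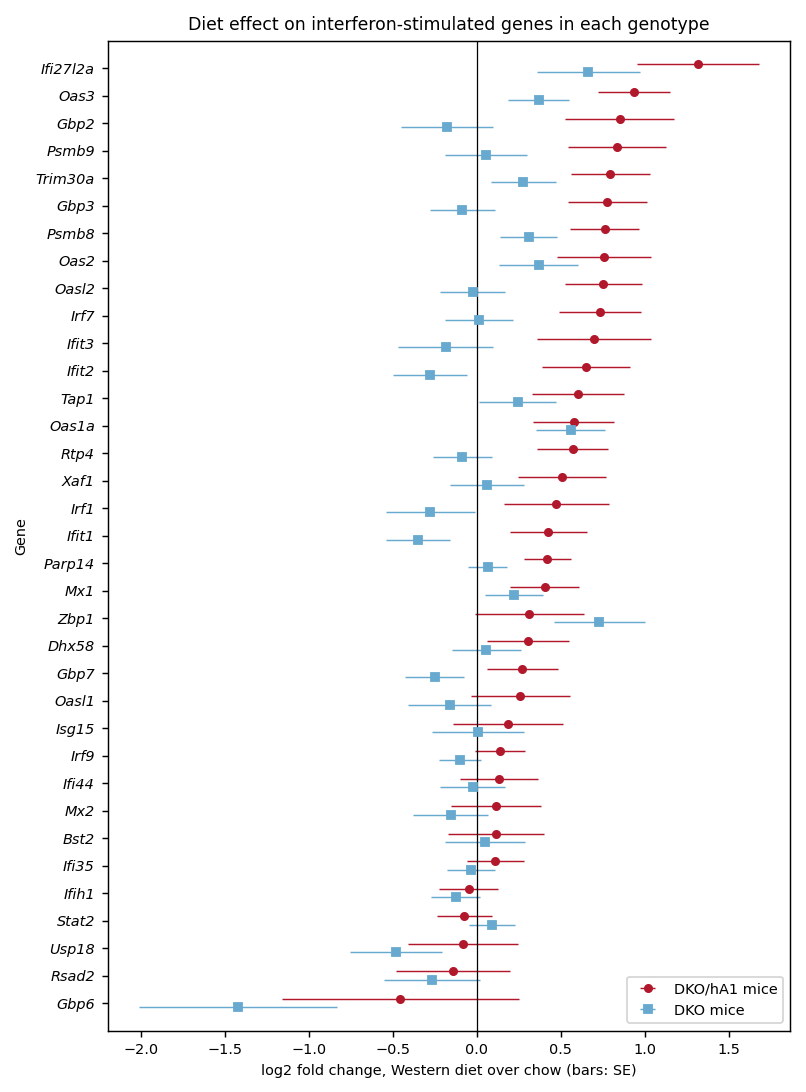
Log2 fold change of each member, Western diet over chow, in DKO/hA1 livers and in DKO livers, with bars of 1 standard error and members ordered by their value in DKO/hA1 livers. The DKO/hA1 points lie above 0 for 30 of 35 members and the DKO points for 17.

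Comparing the genotypes on the same diet asks what human APOA1 adds to the double knockout. On Western diet the DKO/hA1 livers had a member median of 0.25 over DKO livers, beside -0.016 for all genes, with 29 of 35 positive. limma called 0 of 35 members and 0% of all genes. At an unadjusted p below 0.05, 10 members were higher and 0 lower, where 3.56% of all genes were higher and 2.35% lower. For Gbp2, Gbp3, Oasl2 and Trim30a, 4 members, every DKO/hA1 library lay above every DKO library, which held for 4.38% of all genes. For 0 members did they all lie below, which held for 5.16%.

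Oasl2, a relative of the 2-5A synthetases that carries ubiquitin-like domains, stood at 5.77, 4.18 and 4.88 FPKM in DKO/hA1 Western diet livers, against 3.72, 2.40 and 1.83 FPKM in DKO Western diet livers. Its log2 fold change was 0.74 ± 0.21 (limma adjusted p = 0.745). Gbp2 stood at 6.81, 5.51 and 4.38 FPKM in DKO/hA1, against 3.80, 2.29 and 1.81 FPKM in DKO (0.89 ± 0.29, limma adjusted p = 0.768). Gbp3 stood at 7.85, 4.63 and 5.19 FPKM in DKO/hA1, against 4.23, 2.96 and 3.80 FPKM in DKO (0.56 ± 0.21, limma adjusted p = 0.806). In these 3 genes, picked by their test statistic in this same comparison, the genotypes did not overlap on Western diet. Ifit2, which binds viral RNA and inhibits translation, stood at 4.09, 2.70 and 2.07 FPKM in DKO/hA1, against 2.49, 1.05 and 0.977 FPKM in DKO (0.69 ± 0.23, limma adjusted p = 0.774), with overlap. Trim30a stood at 6.02, 5.67 and 9.90 FPKM in DKO/hA1, against 5.44, 5.01 and 3.36 FPKM in DKO (0.55 ± 0.21, limma adjusted p = 0.814), with no overlap.

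On chow the same genotype comparison had a member median of -0.14, beside -0.0089 for all genes, and 12 of 35 were positive. limma called 0 of 35 members, where 0.0779% of all genes were called and 0.0260% were called lower. At an unadjusted p below 0.05, 0 members were higher and 3 lower, where 3.70% of all genes were higher and 3.77% lower. The 3 were Psmb9 (-0.75 ± 0.28), Irf1 (-0.67 ± 0.30) and Psmb8 (-0.51 ± 0.19), and the smallest adjusted p among the members was 0.559. Psmb9 stood at 15.9 and 15.1 FPKM in DKO/hA1 chow livers, against 22.2, 27.3, 20.0 and 37.9 FPKM in DKO chow livers, with no overlap. Irf1, a transcription factor that drives interferon gamma responses, stood at 17.2 and 9.56 FPKM in DKO/hA1 chow livers, against 18.4, 18.98, 16.0 and 31.4 FPKM in DKO chow livers, with overlap. Without overlap, 7 members were lower in DKO/hA1 (9.28% of all genes) and 2 higher (12.3% of all genes). The 7 were Ifi35, Ifit1, Irf9, Psmb8, Psmb9, Rtp4 and Xaf1, and the 2 were Ifi44 and Rsad2.

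The difference between the diet effects, DKO/hA1 minus DKO, was tested directly. Its member median was 0.42, beside 0.0009 for all genes, and 33 of 35 members were positive. limma called 0 of 35 members, where 0.0173% of all genes were called, and the smallest adjusted p of a member was 0.964. At an unadjusted p below 0.05, 7 members were higher and 0 lower, where 2.51% of all genes were higher and 2.37% lower. The 7 were Gbp2 (1.03 ± 0.43), Ifit2 (0.93 ± 0.34), Gbp3 (0.86 ± 0.31), Ifit1, Oasl2, Irf7 and Rtp4. A difference between the genotypes in the diet response of any member was therefore not shown at the adjusted threshold. The comparisons share libraries: the 3 DKO/hA1 Western diet livers enter both the diet comparison in that genotype and the genotype comparison on Western diet.

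By role, the 4 transcription factors had medians of 0.31 in DKO/hA1 and -0.045 in DKO for Western diet over chow. Stat2 (13.1 to 20.4 FPKM) and Irf9 (13.03 to 19.1 FPKM), both part of the type I complex, had diets that overlapped in both genotypes. The 3 sensors had medians of 0.30 and 0.057. Among them Ifih1, which encodes the double-stranded RNA sensor Mda5, ranged from 5.51 to 8.51 FPKM and Dhx58, its relative Lgp2, from 3.88 to 10.4 FPKM.

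Of the 2-5A synthetase family, all 5 members were positive in DKO/hA1 livers, with a median of 0.75, and 3 of 5 in DKO livers, with a median of 0.37. Oas2 stood at 3.78, 2.89 and 7.50 FPKM in DKO/hA1 Western diet livers, against 2.58 and 1.82 FPKM in DKO/hA1 chow livers (0.76 ± 0.28, limma adjusted p = 0.25). Oasl1, which in mice restrains translation of Irf7, ranged from 5.72 to 14.6 FPKM. Of the family, only Oas3 was called, and only in the averaged comparison.

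The 3 Ifit genes, clustered on chromosome 19, had a median of 0.65 in DKO/hA1 and -0.28 in DKO livers, positive for all 3 in DKO/hA1 and for 0 in DKO. Ifit1 ranged from 1.55 to 5.11 FPKM. Ifit3 stood at 18.8, 8.31 and 8.39 FPKM in DKO/hA1 Western diet livers, against 6.63 and 6.05 FPKM in DKO/hA1 chow livers. The first of these values was 2.16 times the next highest library of the series. Ifit3 shares 51.2% of its 50-base sequences with Ifit3b, so its level is uncertain. The ISG15 pair had medians of 0.052 and -0.24. Isg15, a ubiquitin-like protein that is attached to other proteins, ranged from 9.22 to 24.3 FPKM and Usp18 from 3.25 to 11.1 FPKM.

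Among the 6 antiviral effectors the medians were 0.26 in DKO/hA1 and -0.018 in DKO livers. Mx2 ranged from 1.67 to 4.73 FPKM, Rsad2 from 0.620 to 3.44 FPKM, and Rtp4, a receptor transporter protein induced by interferon, from 8.52 to 15.6 FPKM. The 4 guanylate-binding proteins had medians of 0.52 and -0.22, and Gbp7 ranged from 2.41 to 4.33 FPKM. For the 3 antigen processing genes, neighbours on chromosome 17, the medians were 0.76 and 0.24. Tap1, a subunit of the peptide transporter into the endoplasmic reticulum, stood at 17.2, 9.30 and 10.95 FPKM in DKO/hA1 Western diet livers, against 7.54 and 7.56 FPKM in DKO/hA1 chow livers (0.60 ± 0.27, limma adjusted p = 0.37). The exons of Psmb9 and Tap1 overlap on opposite strands, and whether the counting used strand is not given in the sources used here.

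The other 5 genes had medians of 0.42 and 0.061. Ifi44 ranged from 1.06 to 3.99 FPKM, Ifi35 from 14.9 to 23.8 FPKM and Xaf1, a partner of the apoptosis inhibitor Xiap, from 1.31 to 4.20 FPKM. Parp14, an ADP-ribosyltransferase, stood at 9.71, 8.16 and 11.4 FPKM in DKO/hA1 Western diet livers, against 7.24 and 6.57 FPKM in DKO/hA1 chow livers (0.42 ± 0.14, limma adjusted p = 0.182).

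Much of the variation of the list lay between libraries of the same group. DKO/hA1 Western diet replicate 1 was the highest of all 12 libraries for 23 of 35 members, where it was the highest for 6.33% of all genes tested. It lay above the mean over libraries for all 35, with a median deviation of 0.60 on the log2 scale. The next was DKO/hA1 Western diet replicate 3, highest for 6 members, where it was the highest for 12.8% of all genes, with a median deviation of 0.23. The remaining library of that group, replicate 2, had a median deviation of -0.13. It was the highest of the 3 for 0 members, which held for 28.9% of all genes. It was the lowest of the 3 for 29 members, a count whose share over all genes was not computed. On the other side, DKO Western diet replicate 3 was the lowest of all libraries for 11 members, which held for 8.26% of all genes.

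The roles did not split alike between the high libraries. In DKO/hA1 Western diet replicate 1 every role lay above its mean, from 0.37 for the transcription factors to 0.84 for the guanylate-binding proteins. In replicate 3 of the same group the 2-5A synthetases stood at 0.57, whereas the antigen processing genes stood at 0.024 and the guanylate-binding proteins at 0.14. In DKO chow replicate 4 the antigen processing genes stood at 0.45 and the guanylate-binding proteins at 0.41, while the 2-5A synthetases stood at -0.085. Irf1 and Gbp6 were highest of all in that chow library. These are deviations from the mean over libraries and are descriptions of single libraries, with no test.

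The first number of a library's code in the labels, whose meaning the labels do not state, was 41 in DKO/hA1 Western diet replicate 1 and in DKO Western diet replicate 1. Both were the highest of their own group for 23 members at once, which held for 15.9% of all genes. Another first number was shared by the DKO/hA1 chow libraries, which make up that whole group, and by DKO chow replicate 3. No first number occurred on both diets, so differences between diets cannot be separated from differences between these numbers. Without DKO/hA1 Western diet replicate 1 the member median for diet in DKO/hA1 was 0.28, and for genotype on Western diet it was 0.12. Without DKO Western diet replicate 1 the median for genotype on Western diet was 0.38. Without DKO/hA1 Western diet replicate 2 the same medians were 0.60 and 0.53, and Irf7 was then called for diet in DKO/hA1 (limma adjusted p = 0.0455).

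**Figure D5:**
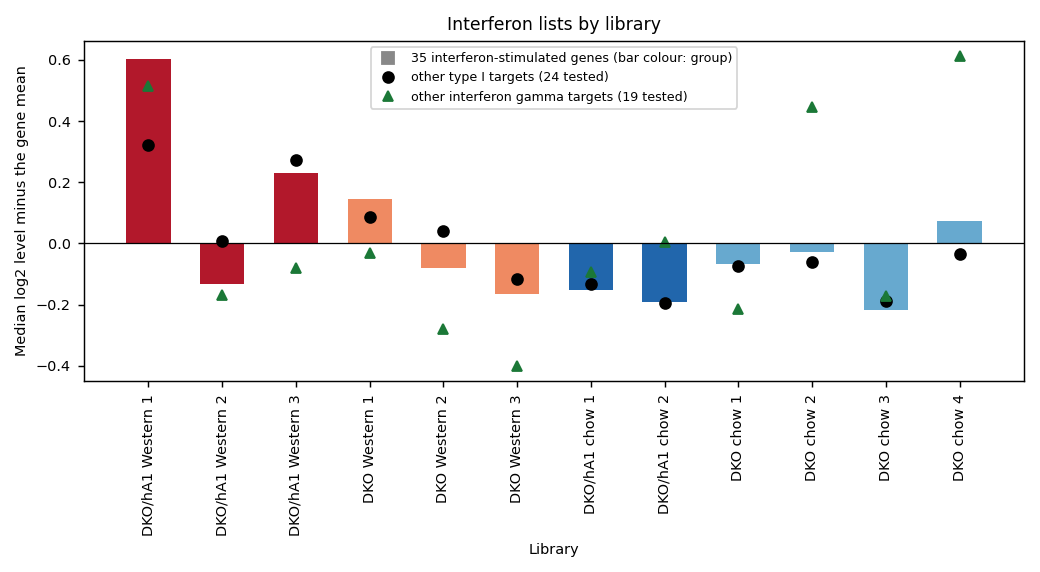
Bars, coloured by group, give for each of the 12 libraries the median over the 35 members of log2(FPKM + 1) minus the mean of the gene over libraries, and circles and triangles give the same median for the 24 other type I targets and the 19 interferon gamma targets tested. The bar of DKO/hA1 Western diet replicate 1 is the highest, at 0.60, and the triangle is highest in DKO chow replicate 4, at 0.61.

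Kupffer cell markers moved with diet beside these genes, and no other marker list had a gene called for diet. The 10 Kupffer cell markers summed to 735 to 1553 FPKM in Western diet livers, against 144 to 542 FPKM in chow livers, with no overlap. All 10 had a positive log2 fold change in both genotypes, and 5 of them (C1qa, C1qb, C1qc, Cd5l and Vsig4) were called in DKO/hA1 and in the averaged comparison. The shares of all genes called higher there were 1.12% and 2.79%. In DKO livers limma called 0 of the 10. The DKO/hA1 chow sums were 419 and 144 FPKM, and without chow replicate 2 only 4 genes in all were called for diet in DKO/hA1. On chow all 10 markers were lower in DKO/hA1 than in DKO, with a median log2 fold change of -0.74. The neutrophil sum was 16.3 FPKM in DKO/hA1 Western diet replicate 1, where the members were highest, and 850.5 FPKM in replicate 3. The T and NK cell sum was 8.98 FPKM in DKO/hA1 Western diet replicate 1 and 9.85 FPKM in DKO chow replicate 4, against 2.15 to 5.98 FPKM elsewhere. The cholangiocyte sum, over 4 markers, was 20.5 FPKM in DKO chow replicate 4, against 2.32 to 6.54 FPKM in the other libraries. Plasmacytoid dendritic cell markers, of cells known for making type I interferon, summed to 0.110 to 1.95 FPKM. The endothelium sum, over 5 markers, was 44.7 to 88.1 FPKM on Western diet and 33.3 to 108 FPKM on chow, so the diets overlapped. Its lowest value was in DKO/hA1 chow replicate 2, against 90.5 FPKM in replicate 1 of that group. The part of these cells in the members' values was not tested. In whole liver, fewer cells of a type and less RNA per cell cannot be told apart.

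Of the rest of the interferon pathway, 101 genes were listed, 100 were found in the table and 83 were tested. The 12 interferon genes themselves were at or near 0: Ifnb1 was above 0 in 1 library, Ifng ranged from 0 to 0.56 FPKM, and 0 of the 12 could be tested. Both chains of the type I receptor were present, with Ifnar1 at 4.27 to 6.55 FPKM and Ifnar2 at 39.8 to 66.8 FPKM. Il28ra, a chain of the interferon lambda receptor, was at 0 to 0.206 FPKM and could not be tested. For diet in DKO/hA1, 1 of the 83 was called higher and 0 lower, where 1.12% of all genes were called higher, with a list median of 0.22. Of these genes 21 were higher and 1 lower at an unadjusted p below 0.05, where 7.73% of all genes were higher and 5.78% lower. For diet in DKO limma called 0, with 10 higher and 3 lower at an unadjusted p below 0.05, where 7.06% of all genes were higher and 4.75% lower.

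The called gene was Ifi204, a nuclear sensor of DNA. It stood at 8.90, 8.59 and 12.8 FPKM in DKO/hA1 Western diet livers, against 5.39 and 3.03 FPKM in DKO/hA1 chow livers, with no overlap. Its log2 fold change was 1.10 ± 0.20 (limma adjusted p = 0.0255), and averaged over genotypes it was 0.73 ± 0.13 (limma adjusted p = 0.0109). In the averaged comparison too it was 1 of 83 called higher, where 2.79% of all genes were called higher. The call in DKO/hA1 rests on 2 chow libraries, and whether Ifi204 stayed called with either left out was not examined. Far fewer genes in all were called in that comparison without chow replicate 2. The 24 tested genes of a list of other type I targets had a median of 0.40 for diet in DKO/hA1 and 0.067 in DKO. The 19 tested genes of a list of interferon gamma targets had medians of 0.11 and -0.39, and limma called 0 of them in either comparison, with 5 higher in DKO/hA1 (7.73% of all genes) and 3 lower in DKO (4.75% of all genes) at an unadjusted p below 0.05. The gamma targets were high in DKO chow replicate 4, by 0.61, in DKO/hA1 Western diet replicate 1, by 0.51, and in DKO chow replicate 2, by 0.45, as deviations from the mean over libraries on the log2 scale.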

How the data were processed

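Per the submitters' processing notes, TopHat 1.3.2, Bowtie 0.12.8, SAMtools 0.1.19 and Cuffdiff were used with mm10, and the annotation is not given in the sources used here. The authors deposited FPKM, and read counts were not used here, so depth is known in relative terms only and no counting interval is given.

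Libraries were grouped by their labels. The scale between them was set by a trimmed mean of log ratios to the library nearest the average upper quartile, leaving out 0.3 of the ratios and 0.05 of the levels at each end. Small RNA genes (777) were left out, as were 22 genes at 0 throughout a group but at 1 FPKM or more in every library of another. Genes with 1 FPKM or more in at least 2 libraries were tested as log2(FPKM + 1) in limma 3.58.1 (R 4.3.3), in a model of the 4 groups with trended, robust variance. P-values were two-sided and Benjamini-Hochberg adjusted over 11548 genes. The code was tested on simulated data. Overlap of groups was read from the deposited values.

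All 12 libraries are given for members called, whereas for the other members chosen by rule the values may cover only some groups. Those were the 5 with the largest test statistic in each comparison of Western diet with chow and of genotype on Western diet. They also include the 5 with the highest mean. Others were added after their values were seen. The members and lists were chosen with earlier results of these data known. Shared transcript sequence was read from GENCODE vM21. Alternatives covered the value added before the log2, the filter, the scaling, the variance model, the libraries fitted and blocks by replicate or code number.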

Additional observations from a re-analysis of the deposited data

How the results depend on the processing

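Under each of the 22 or 23 alternatives the member median kept its sign for diet in DKO/hA1 (0.28 to 0.60), averaged diet (0.051 to 0.30), genotype on Western diet (0.12 to 0.53), genotype on chow (-0.18 to -0.059) and the difference of the diet effects (0.30 to 0.61). In DKO alone it ran from -0.19 to 0.045. Leaving out DKO/hA1 Western diet replicate 2 gave the highest genotype median on Western diet (0.53) and 1 member called for diet in DKO/hA1 (range 0 to 1 over single libraries left out). The 3 members called for averaged diet became 0 with equal library totals, 1 without the filter, 0 with a replicate block by code number, 0 without the Western diet libraries highest in neutrophil markers, and 0 without both libraries of code 41, an alternative added after seeing the data. Leaving out single libraries gave 0 to 4. With a fixed replicate block the 3 remained called. Oas3 was called in 16 of 22 alternatives, Ifi27l2a in 8 and Psmb8 in 7. Bringing libraries to equal totals gave an all-gene median of -0.14 for averaged diet (otherwise -0.013), where the member median was 0.11, and of 0.16 for genotype on Western diet (otherwise -0.016), where it was 0.45. Same-numbered libraries did not all deviate together (correlations of -0.28 to 0.44 over 15 pairs, median -0.020, highest for replicate 1 of the DKO/hA1 and DKO Western diet groups), so the numbers were not taken to pair the libraries, and the cause of the changes was not tested. A fit of the compared groups alone was not run for averaged diet and the difference. Depth is known in relative terms only, so the limit it sets on low members such as Mx1 and Oas3 could not be given.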
